A study of Mus musculus with 3 samples.

Results

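The 5′-starts described here are genomic positions at which small RNA reads began and at which a sizeable share of those reads ended in a T that does not match the genome. A sequenced T stands for a U in the RNA, so such reads are read as carrying uridine at the 3′-end. Members were selected on the measured share of T-ended reads: a 5′-start was taken when it held at least 200 reads of 16 to 27 nt summed over 3 libraries, when at least 2% of these reads ended in a mismatching T, and when T-ended reads outnumbered A-ended reads. That share therefore is a description of the members and supports nothing by itself. It was met by 448 of 2308 starts, or 19.4%. Of the members, 296 lay on miRNA hairpins, 5 on other small RNA genes and 147 on sequences without a name.

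MIN6 is a mouse insulinoma line, a transformed model of the insulin-secreting beta cell rather than a primary islet cell. The data are small RNA libraries from 3 biological replicates of MIN6, all grown in DMEM with 25 mM glucose and heat-inactivated serum, with no second condition, genotype or time. Values are thus levels of a single condition, given for each library or with the SD of the 3 replicates, and the design allows no comparison of conditions. The deposited alignments summed to 9269795, 10816006 and 10218743 mapped reads in replicates 1, 2 and 3, of which 6040153, 7047823 and 6647767 reads of 16 to 27 nt began at the members.

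A miRNA is cut from a hairpin precursor by Drosha in the nucleus and by Dicer in the cytoplasm, and either strand (the 5p or the 3p arm) can be loaded into Argonaute. The 3′-end of the precursor is also the 3′-end of the 3p arm, so uridine added to the precursor before Dicer cleavage stays on the 3p product, whereas a 5p product acquires its 3′-end only when Dicer cuts. The terminal uridylyltransferases TUT4 and TUT7 add uridine to such ends. Precursors of the let-7 family are the best known substrates: LIN28 recruits these enzymes to build a long tail that the exonuclease DIS3L2 degrades, and a single added uridine can instead help Dicer to cut a precursor with a short overhang.

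The beta cell identity of the libraries was read from miRNA markers. miR-375-3p, the dominant miRNA of the islet, made up 345165, 368881 and 382999 RPM (reads scaled to the mapped total of the library) over its 4 starts, all of which are members. miR-184-3p reached 126, 175 and 110 RPM and is a member, and miR-7a-5p reached 420, 439 and 355 RPM and is not. None of the 13 markers of acinar, liver, muscle, blood or fibroblast cells had a named start with 200 reads.

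The most frequent T-ended read of 4 of the most abundant members is shown first, to make the tails visible. In these lines the capitals mark the bases that do not match the hairpin, and everything before them is the hairpin sequence from RefSeq (GRCm38.p6).
miR-375-3p: uuuguucguucggcucgcgugaU
miR-182-5p: uuuggcaaugguagaacucacaccgU
miR-27b-3p: uucacaguggcuaaguucugcU
miR-127-3p: ucggauccgucugagcuuggcuU
The mature miR-182-5p lies at chr6:30165962-30165986 on the minus strand, miR-27b-3p at chr13:63300760-63300780 on the plus strand in 2010111I01Rik, and miR-127-3p at chr12:109592888-109592909 on the plus strand (all GRCm38.p6).

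Annotated 3p ends of the let-7 family are shown next, because they hold some of the highest shares of T-ended reads. The first line of each pair is the mature sequence of RefSeq with its seed (bases 2 to 8) in capitals, and the second line is the most frequent T-ended read with the mismatching tail in capitals.
let-7f-2-3p mature: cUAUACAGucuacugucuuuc
let-7f-2-3p tailed: cuauacagucuacugucuuucU
let-7f-1-3p mature: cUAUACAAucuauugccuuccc
let-7f-1-3p tailed: cuauacaaucuauugccuuccU
let-7b-3p mature: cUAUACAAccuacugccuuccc
let-7b-3p tailed: cuauacaaccuacugccuuccU
let-7a-1-3p mature: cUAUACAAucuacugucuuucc
let-7a-1-3p tailed: cuauacaaucuacugucuuucU
let-7e-3p mature: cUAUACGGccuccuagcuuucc
let-7e-3p tailed: cuauacggccuccuagcuuuccU
For let-7f-1-3p, let-7b-3p and let-7a-1-3p the tailed read has the length of the annotated mature sequence and carries U in place of its last c, whereas for let-7f-2-3p and let-7e-3p the U follows the annotated end. The mature let-7f-2-3p lies at chrX:151912403-151912423 (plus strand, intron of Huwe1), let-7f-1-3p at chr13:48537833-48537854 and let-7a-1-3p at chr13:48538188-48538209 (both minus strand, in 6720427I07Rik), let-7b-3p at chr15:85707379-85707400 (plus strand, in Lncppara) and let-7e-3p at chr17:17830411-17830432 (plus strand, intron of Spaca6), all on GRCm38.p6.

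Members were more frequent on 3p than on 5p arms. Of the 254 starts on 3p arms with 200 reads, 191 were members (75.2%), compared with 105 of 225 starts on 5p arms (46.7%). These starts include 6 at Snord43 and Gm23935, which are annotated as miRNA genes in GENCODE but carry no miRNA name and held no member. Without them, a setting chosen after seeing the data, the shares were 76.1% of 251 and 47.3% of 222. Outside miRNA hairpins the rule was met by 5 of 450 starts at other small RNA genes (1.11%) and by 147 of 1379 starts without a name (10.7%). These shares are counts of what the rule selected, and arms of copied hairpins share their reads. Names were given from mismatching reads near a start, so the shares of named and unnamed starts are not independent of mismatches. The 296 members on hairpins came from 159 hairpins, held 264 distinct sequences over their first 18 bases and 230 distinct seeds. Of these 296 members, 190 began at the annotated or most abundant start of their arm and 106 were 5′-shifted, that is, they began upstream or downstream of it and so carry another seed.

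The share of T-ended reads was also higher among 3p members. The median over the 191 3p members was 15.2%, with quartiles of 6.96% and 30.1% and a maximum of 96.6%, and the median over the 105 5p members was 8.41%, with quartiles of 4.51% and 13.6% and a maximum of 47.9%. In replicates 1, 2 and 3 the medians were 15.01%, 15.2% and 15.7% on the 3p arm and 8.24%, 8.43% and 7.69% on the 5p arm. All 3 libraries entered the selection of the members by this share. The medians are therefore a description of the members and no independent replication. At least 20% of reads were T-ended at 79 3p and 14 5p members, and at least 50% at 19 3p members and at 0 5p members. At 22 3p members and 0 5p members, T-ended reads outnumbered those without a terminal mismatch. The spread over replicates was small beside these ranges, with a median SD of 1.17 percentage points on the 3p and 0.695 on the 5p arm.

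**Figure D1:**
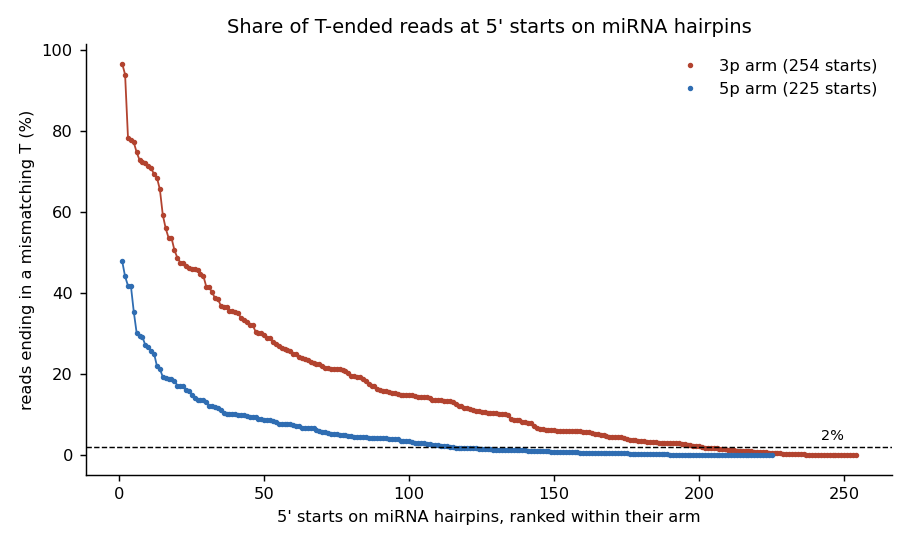
Each point is a 5′-start on a miRNA hairpin, ranked along the x axis by its share of reads ending in a mismatching T (y axis, % of reads of 16 to 27 nt, 3 libraries summed), separately for the 254 starts on 3p and the 225 on 5p arms. The dashed line is the 2% threshold, and the 3p curve lies above the 5p curve, reaching 96.6% compared with 47.9%.

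Most members met the percentages of the rule in each library alone. In replicates 1, 2 and 3 these were 427, 435 and 417 of the 448 members, and 393 did so in every library, among them 177 of the 191 3p and 95 of the 105 5p members. Near the threshold the libraries disagreed. The 3 named members just inside it were miR-488-5p at 2.04%, miR-129-1-3p-2 at 2.16% and let-7d-3p+1 at 2.23%, where the last number of a name gives the shift of the start in nt. The 3 just outside it were miR-379-3p at 1.9965%, miR-423-5p at 1.91% and miR-872-3p at 1.90%. For miR-488-5p the values per library were 1.72%, 2.93% and 1.26%, from 3, 6 and 2 T-ended reads.

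At most members T was the commonest mismatching last base, miR-375-3p being an exception. T-ended reads outnumbered A-, C- and G-ended reads together at 283 of the 296 hairpin members. The rule asks that T reach 2% of reads and exceed A, and sets no condition on C or G. Median C- and G-ended shares were 0.315% and 0.203% at 3p members and 0.256% and 0.211% at 5p members. The 2% threshold thus largely fixes this count. Pooled over reads and leaving out miR-375-3p, 14.1% ± 0.236 (SD, n = 3) of the reads of 3p members ended in a mismatching T, compared with 2.03% ± 0.0327 in A, 0.347% ± 0.0195 in C and 0.224% ± 0.0030 in G. For 5p members the shares were 9.41% ± 0.176 for T, 1.82% ± 0.0327 for A, 0.501% ± 0.0443 for C and 0.458% ± 0.0206 for G. All 4 starts of miR-375-3p, the shifted ones included, were left out of pooled values. They held 11103190.5 of the 19735743 member reads, 10756041 of them at the main start. At that start 16.4% of reads ended in a mismatching G, more than in T. With the 4 starts, 12.4% ± 0.717 of the reads of 3p members were G-ended and 5.94% ± 0.356 T-ended. Starts on hairpins that were not members had 0.260% ± 0.0144 of T-ended reads on the 3p and 0.687% ± 0.0215 on the 5p arm. Most of these starts lay below the 2% threshold, so their distance from the members is largely set by the rule.

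Mismatching T lay mostly in the last 4 bases of the reads, of which the rule used only the last one. In 3p members the share of reads with a mismatching T was 14.1% at the last base, 4.12% at the base before it, 0.954% and 0.261% at the next positions inward, and between 0.0080% and 0.0152% at distances of 4 to 10 nt. The 5p members fell faster, from 9.41% to 0.696%, 0.130% and 0.0226%, and stayed at 0.0092% 4 nt from the end. Mismatches to C behaved differently, being most frequent at 1.48% 4 nt from the end in 5p members, which the T-ended share does not contain. The authors allowed at most 1 mismatch at the 3′-end of reads of 16 to 18 nt, 2 at 19 to 23 nt and 3 in longer reads, beside 1 elsewhere in the read, which limits the length of the tails that could be seen.

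**Figure D2:**
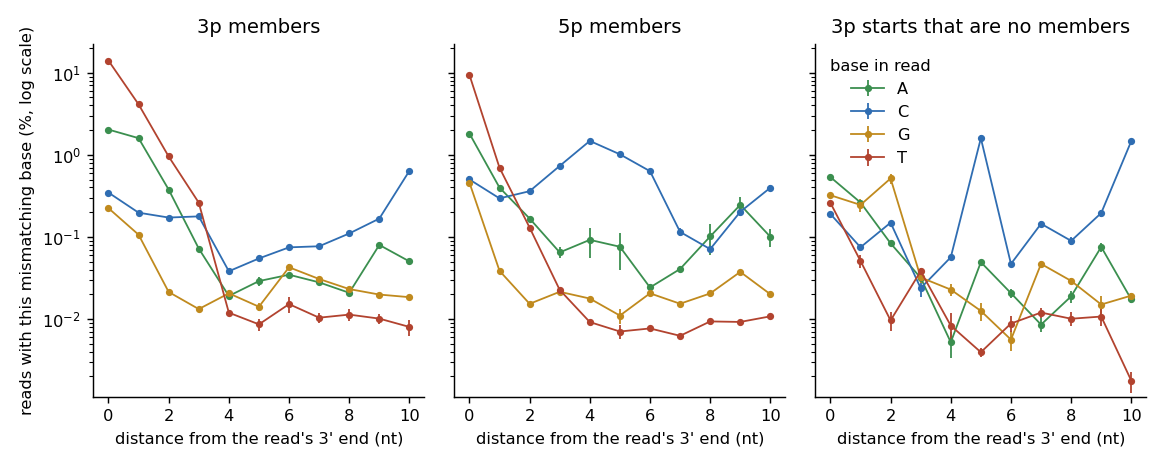
Share of reads with a mismatching base (y axis, %, log scale) by distance from the 3′-end of the read (x axis, nt, 0 is the last base), with 1 line per base in the read, points for the mean and bars for the SD of 3 libraries, without miR-375-3p. Mismatching T drops from 14.1% at the last base of 3p members to under 0.02% 4 nt inward, and is 0.260% at the last base of 3p starts that are no members.

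T-ended reads were longer than reads without a terminal mismatch. Without miR-375-3p, T-ended reads of 3p members averaged 22.9 ± 0.0087 nt and untailed reads 21.5 ± 0.0105 nt, and those of 5p members 24.4 ± 0.0212 nt and 22.8 ± 0.0307 nt (SD, n = 3). In every library and on both arms the most frequent length was 23 nt for T-ended and 22 nt for untailed reads. Start by start, T-ended reads were longer on average in every library at 286 of the 296 hairpin members, 185 on the 3p and 101 on the 5p arm. The most frequent T-ended length exceeded the most frequent untailed length by 1 nt at 167 members, by 2 nt at 46 and by 3 nt at 18, equalled it at 53 and was 1 nt shorter at 6. Once the tail was removed, the remaining matching part differed from the untailed reads by a median of 0.0755 nt. For 250 members with an annotated 3′-end, this matching part ended most often at that base in 113, before it in 69 and after it in 68.

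**Figure D3:**
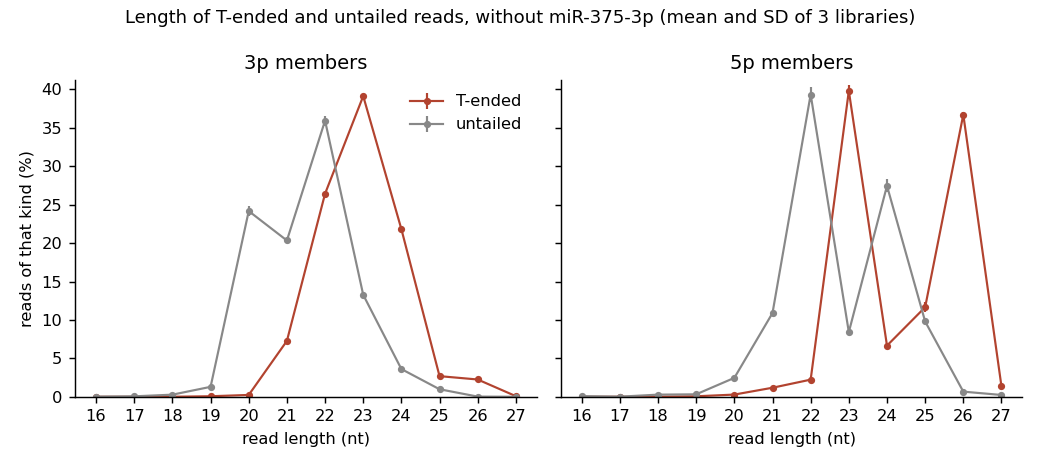
Length distribution (x axis, nt) of T-ended and untailed reads, as a share of the reads of each kind (y axis, %), for 3p and 5p members without miR-375-3p; points are means and bars SD of 3 libraries. On the 3p arm the highest peak is at 22 nt without and at 23 nt with T, and untailed reads have a lower peak at 20 nt. The 5p arm has 2 peaks in each kind, at 22 and 24 nt without and at 23 and 26 nt with T. The last is the most frequent T-ended length of miR-182-5p.

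Single-base tails made up most T-ended reads, more so on the 5p arm. Pooled without miR-375-3p, a lone U accounted for 81.6% ± 0.395 of the T-ended reads of 3p members, UU for 10.1% ± 0.2997, AU for 6.13% ± 0.166 and UUU for 0.420% ± 0.0029 (SD, n = 3). On the 5p arm a lone U accounted for 96.1% ± 0.190, UU for 1.77% ± 0.108 and AU for 0.995% ± 0.0740. Single abundant members weigh heavily on these pooled values. On the 3p arm miR-127-3p held 156041 T-ended reads, of which 32321 carried UU and 25477 AU. On the 5p arm miR-182-5p held 176044, of which 99.5% carried a lone U. Pooled values without these members were not computed. Over starts rather than reads the contrast was smaller, with a median of 6.67% of T-ended reads carrying 2 or more mismatching bases at 3p members and 4.35% at 5p members. Such tails reached at least 10% of T-ended reads at 82 3p and 30 5p members, and at least 50% at 6 and 2.

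The members with the most multi-base tails differed in which tail they carried. Among members with 200 or more T-ended reads, the 5 highest shares belonged to an unnamed start on chromosome 1, to miR-92a-3p, to miR-375-3p+2, to a further unnamed start on chromosome 1 and to miR-3102-3p.2-3p. miR-92a-3p, of the miR-17-92 cluster, had 82.3% multi-base tails (87.1%, 80.6% and 79.5% in replicates 1, 2 and 3), and AU alone was 58.5% of its T-ended reads. miR-375-3p+2 had 76.5%, 76.0% and 75.2%, mostly UU (55.4%). miR-3102-3p.2-3p had 61.6%, 63.6% and 70.4%, from 231 T-ended reads in all, with UU at 50.6%. In miR-29c-3p, chosen after its values were seen, CU was the most frequent tail with 57.8% of 289 T-ended reads, and in miR-141-5p, chosen likewise, CU (41.1%) came second to U (48.0%). The most frequent T-ended reads of these 3 miRNAs show the different tails, again with mismatching bases in capitals.
miR-92a-3p: uauugcacuugucccggccuguAU
miR-29c-3p: uagcaccauuugaaaucgguuaCU
miR-141-5p: caucuuccagugcaguguuggauU
The mature forms lie at chr14:115044476-115044496 (plus strand, in Mir17hg), chr1:195037600-195037621 (plus strand, in A330023F24Rik) and chr6:124717959-124717980 (minus strand), on GRCm38.p6.

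Whether a U tail can be seen depends on the hairpin base that follows the usual end, since an added U that matches that base counts as templated. When the base after the most frequent untailed end was A, C or G, 83.5% of 3p starts (162 of 194) and 63.6% of 5p starts (96 of 151) were members. When it was U, the shares were 47.5% (28 of 59) and 12.2% (9 of 74). The next base was thus U more often on the 5p than on the 3p arm, and the share of members was higher on the 3p arm for either kind of base. Reads extended by 1 matching base were common where that base was U, with medians of 4.32%, 5.26% and 3.97% on the 3p arm and 5.49%, 6.11% and 7.08% on the 5p arm in replicates 1, 2 and 3. They were also common where that base was A, with medians of 8.41%, 7.30% and 6.39% on the 3p and 5.79%, 5.68% and 5.398% on the 5p arm. Where the next base was G, the corresponding medians were 0.0417%, 0% and 0.0518% on the 3p and 0.135%, 0.0661% and 0.0842% on the 5p arm. Among extended reads with a matching U, an added U and a cut 1 nt further on cannot be told apart.

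miR-375-3p, which restrains insulin secretion and is needed for normal beta cell mass, was the most abundant member with 10756041 reads. Its start lies at position 74947256 on the minus strand of chromosome 1 (mm9, the build of the files). It had a low share of T-ended reads at 3.27%, 3.18% and 3.13% in replicates 1, 2 and 3, with 95% Wilson intervals no wider than 3.25% to 3.29% that cover counting error only. A lone U was 74.9% of these, UU 12.8% and AU 10.0%. The 3 other starts of the arm had higher shares, and all 4 matching parts ended most often at the same base. miR-375-3p-1 reached 4.09%, 3.88% and 3.52%, miR-375-3p+1 8.96%, 9.17% and 8.71%, and miR-375-3p+2 78.2%, 78.6% and 78.2%. The values of the 4 starts did not overlap between libraries. The last of them had 4262 reads.

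The other most read members ranged over a narrower set of values. miR-182-5p, of the miR-183 cluster, had 1117060 reads, with T-ended shares of 15.95%, 16.3% and 15.03% in replicates 1, 2 and 3, and 99.5% of its tails were a lone U. miR-127-3p, from an imprinted cluster, had 19.3%, 19.0% and 19.4%, and its tails were longer, with U at 60.6%, UU at 20.7% and AU at 16.3%. miR-27b-3p followed with 10.6%, 9.98% and 10.1%, and miR-99b-5p with 11.8%, 11.8% and 11.7%. Lower shares were found for miR-148a-3p (2.18%, 2.22% and 2.33%), for miR-26a-5p (6.81%, 6.42% and 7.08% at the copy on chromosome 10, whose reads are shared with a copy on chromosome 9) and for the miR-30 family. In that family miR-30d-5p had 4.53%, 4.43% and 4.51%, miR-30e-5p 6.04%, 5.62% and 5.83%, and miR-30a-5p 3.50%, 3.46% and 3.44%. Among 5p members the abundant ones had lower shares, and among 3p members they did not. Abundant starts that missed the rule, on the 3p arm as well, do not enter the medians that follow. The median over hairpin members with 10000 or more reads was 7.75% (57 members), compared with 13.6% for those with 1000 to 10000 reads (121) and 13.6% for those with fewer (118). In the same order, the medians were 5.83%, 9.69% and 9.82% on the 5p arm and 15.2%, 15.9% and 14.9% on the 3p arm. High abundance was not enough to be a member: miR-22-3p, with 699616 reads, had 0.0136% ± 0.0022, and miR-191-5p, with 604380, had 0.648% ± 0.0606 (SD, n = 3). Whether an added U can be seen depends on the next hairpin base, as above, so such low shares do not show that uridine is absent.

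**Figure D4:**
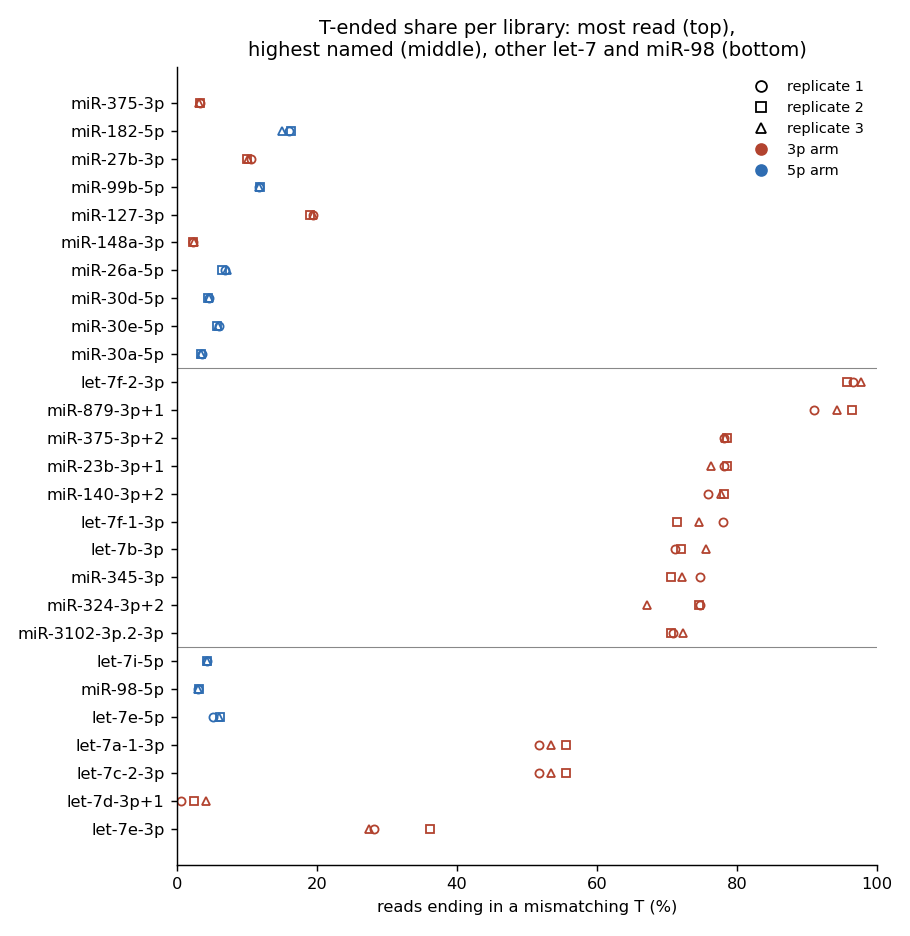
Share of reads ending in a mismatching T (x axis, %) for the 10 most read members, the 10 named members with the highest share and the remaining members of the let-7 and miR-98 hairpins, with 1 symbol per replicate and colours for the arm. The 10 most read members lie below 20% and the 10 highest above 65%, with the replicates of most members close together.

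Among named members, the 10 highest shares belonged to 3p members. let-7f-2-3p led with 96.5%, 95.7% and 97.7% in replicates 1, 2 and 3, from 505 reads in all. It was followed by miR-879-3p+1 at 91.0%, 96.5% and 94.3% and by miR-375-3p+2. miR-23b-3p+1 reached 78.1%, 78.6% and 76.3%, and miR-140-3p+2 reached 75.8%, 78.1% and 77.8%. Both are 5′-shifted starts whose main starts were members with lower shares, at 47.5% for miR-23b-3p and 25.6% for miR-140-3p+1, the most read start of its arm. The next were let-7f-1-3p (78.0%, 71.4% and 74.6%), let-7b-3p (71.2%, 71.9% and 75.5%), miR-345-3p (74.8%, 70.6% and 72.1%), miR-324-3p+2 (74.7%, 74.6% and 67.1%) and miR-3102-3p.2-3p (70.9%, 70.6% and 72.3%). These neighbours in the order overlap across libraries and cannot be ranked among themselves. In some of them almost no read carried the genomic base at the first tail position. At let-7b-3p, 2303 reads reached base 22, of which 2261 had T and 2 the genomic base, and at let-7f-2-3p all 488 reads that reached base 22 had T there. In 45 reads of let-7b-3p and 0 of let-7f-2-3p that T was followed by a matching end, so it was not the last base. At miR-345-3p, 744 of 924 reads had T at base 21 and 172 had the genomic base. Reads matching throughout made up 2.77% of let-7f-2-3p and 3.19% of miR-879-3p+1, compared with a median of 69.0% over the hairpin members.

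Within the let-7 family the arms separated. All values of the 3p arm were high except at let-7d and miR-98. At the 3p starts of let-7d and miR-98 the hairpin base after the usual end is U, so 1 added U would match and go uncounted. That base is also U at let-7a-1-3p, where the share was high. There, however, the most frequent T-ended read carries its U in place of the last annotated base. A U added after the usual end of let-7a-1-3p would go uncounted as well. let-7a-1-3p, whose reads are shared with let-7c-2-3p, had 51.8%, 55.5% and 53.4%, let-7e-3p had 28.2%, 36.1% and 27.5%, and let-7f-2-3p, let-7f-1-3p and let-7b-3p lay above 71% in every library. let-7d-3p+1, a shifted start of 539 reads, met the rule at 0.549%, 2.38% and 4.08%, so the libraries disagreed, while the main start let-7d-3p had 0.254% ± 0.0479 and miR-98-3p 0.273% ± 0.473 (SD, n = 3), and neither was a member. On the 5p arm the members were let-7i-5p with 4.19%, 4.25% and 4.24%, miR-98-5p with 2.93%, 3.12% and 2.97%, and let-7e-5p with 5.18%, 6.11% and 5.94%. Their most frequent T-ended reads follow, with the mismatching U in capitals.
let-7i-5p: ugagguaguaguuugugcuguuU
miR-98-5p: ugagguaguaaguuguauuguuU
let-7e-5p: ugagguaggagguuguauaguuU
In all 3 the hairpin base after the usual end is G. In let-7a-5p, let-7b-5p, let-7c-5p, let-7d-5p and let-7g-5p, which were not members, it is U. let-7a-5p, let-7c-5p, let-7d-5p and let-7g-5p had between 0.0308% and 0.219% of T-ended reads over their copies, and 2.41% to 6.39% of their reads were 1 nt longer and matched. let-7b-5p had 2.95% of T-ended reads and missed the rule because 3.16% ended in A. For let-7f-5p the next base is G in let-7f-1 and U in let-7f-2, so a read with 1 added U matches let-7f-2 and cannot be assigned. Its T-ended shares were 0.0123% and 0.0209% at these copies, and 6.82% ± 0.335 (SD, n = 3) of the reads at let-7f-2 were 1 nt longer and matched.

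miRNAs of the same seed family, which share bases 2 to 8 and so most of their targets, had different shares. The mature sequences of 2 families in which every sequence with 200 reads was a member show the shared seed in capitals (RefSeq, GRCm38.p6), and the differing 3′-ends.
miR-148a-3p: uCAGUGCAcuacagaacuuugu
miR-148b-3p: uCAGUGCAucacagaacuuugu
miR-152-3p: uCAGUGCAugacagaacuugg
miR-130a-3p: cAGUGCAAuguuaaaagggcau
miR-130b-3p: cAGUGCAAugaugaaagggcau
miR-301a-3p: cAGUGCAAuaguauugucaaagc
In the miR-148/152 family, miR-152-3p had 36.7%, 36.2% and 33.4% of T-ended reads in replicates 1, 2 and 3, miR-148b-3p 23.0%, 22.3% and 22.7%, and miR-148a-3p between 2.18% and 2.33%. The values of the 3 did not overlap between libraries, and miR-148a-3p, the lowest, was the most abundant with 14809 ± 831 RPM compared with 2678 ± 278 RPM for miR-148b-3p and 202 ± 7.69 RPM for miR-152-3p (SD, n = 3). Their tails differed as well: multi-base tails were 48.4% of the T-ended reads of miR-152-3p, 1.63% of those of miR-148b-3p and 2.21% of those of miR-148a-3p. In the miR-130/301 family, miR-130b-3p had 43.4%, 42.0% and 39.4%, miR-130a-3p 16.9%, 16.4% and 14.4%, miR-301b-3p 10.4%, 10.6% and 10.8%, and miR-301a-3p 5.43%, 6.02% and 5.46%, again with no overlap. miR-130b and miR-301b lie close together on the minus strand of chromosome 16.

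Other families gave closer values or were split by the rule. In the miR-200b/c/429 family, which maintains epithelial identity, miR-200c-3p (16.4%, 15.5% and 16.2%) and miR-200b-3p (13.1%, 13.2% and 13.9%) lay above miR-429-3p (3.18%, 3.62% and 3.15%), whose next hairpin base is U. In the miR-25/92 family, miR-92b-3p had 16.8%, 15.6% and 16.9%, miR-92a-3p 13.2%, 13.05% and 11.9%, and miR-25-3p 8.52%, 8.75% and 9.13%. On the 3p arm of the miR-30 family, miR-30a-3p (13.6% ± 0.553), miR-30e-3p (10.3% ± 0.483) and miR-30d-3p (7.16% ± 0.816) kept that order in every library (SD, n = 3). The miR-30 5p family was split, since miR-30e-5p, miR-30d-5p, miR-30a-5p and miR-30c-5p were members at 5.83% to 2.32%, and miR-30b-5p (0.818% ± 0.0875) and miR-384-5p (0.506% ± 0.174) were not. miR-125a-5p was a member at 10.3% ± 0.505, while miR-125b-5p had 4.17% of T-ended but 17.7% of A-ended reads at its chromosome 16 copy, mir-125b-2. miR-132-3p (26.2%, 26.8% and 27.6%) and miR-212-3p (20.1%, 19.5% and 16.7%), from a shared transcript, were both members.

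Both arms of 40 hairpins held a member, and the arm with the higher share was not always the 3p arm. Comparing the most read member of each arm, the 3p arm was higher in every library at 19 hairpins, the 5p arm at 14, and the order differed between libraries at 7. The higher share lay in every library on the arm with fewer reads at 22 hairpins and on the arm with more reads at 11. Where the most read start of an arm missed the rule, a less read member stood for that arm. This was so for miR-151-5p (1.25%) and miR-872-3p (1.90%). The counts therefore describe the selected members and not all arms. By ratio, the widest differences in favour of the 3p arm were found at miR-488, with 68.4% on the 3p and 2.04% on the 5p arm, at miR-15a (24.2% and 2.29%) and at miR-151 (26.4% and 2.69% at a shifted 5p start). In miR-99b the 5p arm with 944433 reads had 11.7% and the 3p arm with 2128 reads 30.1%. The reverse was found at miR-29a (2.84% on the 3p and 18.9% on the 5p arm), miR-29c (4.46% and, at a shifted 5p start, 29.1%), miR-141 (3.12% and 17.1%) and miR-140 (25.6% and 47.9%). At miR-700 both arms were high and overlapped, with 44.2%, 42.7% and 45.5% on the 5p and 44.0%, 48.5% and 43.4% on the 3p arm.

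**Figure D5:**
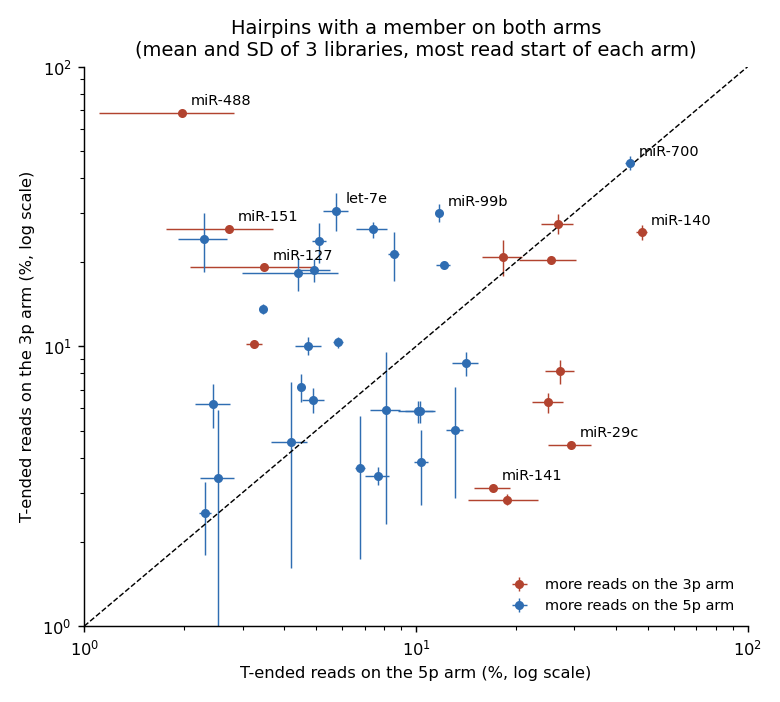
Share of T-ended reads on the 5p (x axis, %, log scale) and 3p arm (y axis, %, log scale) of the 40 hairpins with a member on both, as the mean and SD of 3 libraries for the most read member of each arm, coloured by the arm with more reads. Points on both sides of the dashed line of equality show that either arm can carry the higher share, from miR-488 (68.4% on the 3p arm) to miR-29c (29.1% on the 5p arm).

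Several starts of the same arm could be compared at 56 arms, which gave 81 pairs of the most read member and a further one within 8 nt, with copies of the same name counted once. The matching parts of both starts ended most often at the same base in 59 pairs. The further start had the higher share in every library in 38 pairs and the most read member in 20, and 23 pairs differed in order between libraries. Only members were paired, so starts that missed the rule, such as miR-148a-3p+1 at 1.04%, do not enter. The counts are thus shaped by the rule and do not describe all starts of an arm. Among the 51 pairs whose further start lay downstream, it was higher in every library in 26 and lower in 12, and among the 30 upstream pairs in 12 and 8. The largest increases were miR-375-3p+2, miR-324-3p+2 (72.2% compared with 18.2%), miR-200b-3p+1 (65.6% compared with 13.4%), miR-140-3p+2, miR-300-3p+2 (56.0% compared with 17.5%) and miR-101a-3p (41.4%, compared with 3.08% for miR-101a-3p-1, the more abundant start). The opposite was seen for miR-421-3p+1, at 10.5% compared with 32.8% for miR-421-3p. miR-99b-5p had 6 member starts, which spanned 6.81% to 12.04%. Over all hairpin members, those shifted by +1 nt had a median of 14.1% (42 members), those shifted by −1 nt 8.26% (29) and those at the annotated start 12.5% (190), with the +1 starts of the 3p arm at 25.0%.

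A mirtron, a hairpin made by splicing rather than by Drosha, was represented by miR-877-5p in an intron of Abcf1. Of its 448 reads, 29.9%, 28.2% and 30.3% were T-ended in replicates 1, 2 and 3, and 40.2% of these tails held 2 or more mismatching bases. This is above the upper quartile of the 5p members. The hairpins of miR-1224 and miR-702 had no named start with 200 reads.

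The 147 members without a name gave a different picture from those on hairpins. They lay in 123 clusters within 100 nt, and 1 of them was within 100 nt of a named hairpin start. Their most frequent untailed length was 20 to 24 nt at 93 and under 20 nt at 46. At 20 of them fewer than 10% of reads matched throughout, compared with 4 of the 296 hairpin members (let-7f-2-3p, miR-879-3p+1 and both copies of miR-26a-5p-1). Of the 13 unnamed members with at least 50% T-ended reads, 6 were of that kind. The most abundant, at position 93320500 of chromosome 1 (plus strand, mm9), had 99.1%, 99.2% and 99.3% T-ended reads of 11751.5, but 99.04% of its reads shared a single pattern of mismatches and 0 reads matched throughout. Those at position 134756373 of chromosome 1 (95.7%, 96.4% and 96.3%) and at 83254035 of chromosome 11 (96.7%, 96.6% and 97.5%) consisted mostly of 16 nt reads, and a single T mismatch at the last base made up 94.2% and 94.9% of their reads. Whether such reads come from another locus rather than from tailed RNA was not tested, and these starts are counted among the 448 members. Without the 24 members at which fewer than 10% of reads matched throughout, the median share of T-ended reads over members was 11.6%, as with them. By contrast, the start at 68938147 of chromosome 11 (minus strand) had 37.3%, 35.0% and 36.2% with a most frequent T-ended length of 22 nt and untailed length of 20 nt, and the one at 23386147 of chromosome 10 had 4.74%, 2.78% and 3.26%. The 5 members at other small RNA genes were 3 starts at Scarna3a and Scarna3b, small Cajal body RNAs, with 3.49% to 5.33%, and 2 starts at the snRNA gene Gm25313 with 2.10% and 11.5%, of 261.5 to 573 reads each.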

How the data were processed

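The deposited files hold expected counts that the authors made, the reads behind each distinct alignment, with reads of several loci divided equally among them. Per the labels, adaptors were trimmed with cutadapt and reads aligned with Bowtie to mm9. Per the methods, remaining reads were aligned with SHRiMP near exact matches, with mismatches. The counts of mismatched alignments sum to somewhat more than the mapped total given by the study, so some reads may be counted more than once and every T-ended share may be too high, which was not tested. From these counts, the last base and its mismatch, the mismatching tail, the start and the length of each read were tabulated with Python 3.11.15, numpy 2.4.6 and pandas 2.3.3. Alignments without mismatches end 1 base early in the files, which was corrected. Starts were named from 6085 GENCODE small RNA sequences of the same chromosome and strand. A sequence fitted where none of its bases was recorded as a mismatch. The bases that recorded mismatches excluded gave the score, and 20 bits or more were required (0 named with reversed sequences). Naming thus depends on the mismatching reads around a start, those ending in T included. Mature sequences and seeds are RefSeq GRCm38.p6, and an annotated start lies within 8 nt. The reading of the files and the counting were checked on simulated data, where 200 of 200 starts with tails and 0 of 1800 without were found. The simulated shares lay well above the 2% threshold, and starts without tails held no T-ended read. The simulation therefore says nothing about errors near the threshold or about reads of another locus.

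The members and lists were chosen with earlier results of these data known. Named were the 10 most read, the 10 highest named, the 5 with most multi-base tails, the 3 on each side of the threshold, let-7, miR-98 and mirtron members, the 5 most read unnamed members, and examples of hairpins with members on both arms or several starts. Examples of families and non-members were chosen after their values were seen. let-7 hairpins were not grouped by precursor overhang, because the class of let-7c-2 was unsure. SD is over 3 replicates, and intervals are 95% Wilson intervals that cover counting error only, since reads carry no molecular identifiers. Alternatives were other minimum reads, thresholds and lengths, whole-number counts, tails without other mismatches, each library alone, and each replicate left out.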

Additional observations from a re-analysis of the deposited data

Results flagged for a closer look

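T-ended reads also occurred outside the length range of the rule. At the member starts, 3748, 4517 and 4300 reads of 28 nt or longer were found in replicates 1, 2 and 3, of which 1549, 1815 and 1634 (41.3%, 40.2% and 38.0%) ended in a mismatching T, 4997 in all. This stands apart because these reads enter none of the comparisons above. Most of these T-ended reads came from miR-182-5p (2223), miR-541-5p (841) and miR-30d-5p (793), all 5p members.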

How the results depend on the processing

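With 448 members in the main setting, the alternatives gave 341 to 666 members, except that a minimum of 1000 reads gave 202. The share of members on 3p arms (42.6%) was 33.9% at 100 and 54.5% at 1000 reads, 35.4% and 48.1% at thresholds of 1% and 5%, 44.9% for 18 to 25 nt, 46.1% for whole-number counts, 45.1% for tails without other mismatches, 45.0% when the percentages were met in every library and 45.1% to 46.9% without each replicate. The median T-ended share (11.6%) was 10.97%, 11.1%, 7.69%, 15.9%, 10.8%, 12.96%, 9.79% and 13.6% in the same order, and 11.3% to 11.7% without each replicate. The median share of multi-base tails (7.02%) was 5.37% for 18 to 25 nt, and within 1 SD otherwise. Among settings chosen after seeing the data, naming at 30 bits gave 38.4% on 3p arms, and leaving out starts where under 10% of reads matched throughout gave 44.6%. The cause was not tested. Leaving out a replicate left 354 to 379 members, as fewer starts reach 200 reads. No paired analysis was possible because no second condition was sequenced.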

Other observations

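Some starts carried T-ended reads at 2% or more without being members, because A-ended reads were at least as frequent. There were 18 on miRNA hairpins, 5 of them copies of miR-465 3p starts that share their reads. The highest T-ended share was that of miR-673-5p+1, with 8.30%, 11.2% and 2.30% in replicates 1, 2 and 3 and 13.1% of A-ended reads. miR-125b-5p at mir-125b-2 had 4.14%, 4.61% and 3.62% of T-ended and 17.7% of A-ended reads, and miR-532-5p 3.96%, 3.35% and 3.33% compared with 8.19%. miR-483-3p, from an intron of the insulin-like growth factor gene Igf2, had 4.32%, 4.59% and 4.29% compared with 9.94%, and miR-483-5p 5.43% compared with 5.64%. Multi-base tails made up 64.3% of the T-ended reads of miR-532-5p and 50.4% of those of miR-433-3p.

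The base before the tail was counted at the members of each arm, without the same count over all starts. On the 3p arm it was C at 65 members, G at 51, U at 39 and A at 36, and on the 5p arm G at 43, U at 42, C at 12 and A at 8. Whether these counts differ from the base composition at the ends of each arm was not tested.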
